A study of Mus musculus with 135 samples.

Results

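Hippocampal RNA of 20 male Townes sickle (SS) mice exposed to repeated social defeat (RSD) was compared by minocycline treatment. The members are every hippocampus library labelled SS and RSD: 14 from mice given minocycline (SS + RSD + minocycline) and 6 from mice given none (SS + RSD), out of 66 hippocampus and 134 hippocampus and cortex libraries of known group. In Townes mice the endogenous globin genes are replaced by human ones, and SS mice have the sickle allele on both copies. In RSD, an aggressive male was put into the home cage of resident males on consecutive evenings, and minocycline was given in the drinking water from the day before the first session to the last session. Groups of the same genotype without RSD were 7 SS mice and 4 SS + minocycline mice, and the labels list no ages. Each library is bulk poly(A) RNA of one mouse, so fewer cells of a type and less RNA per cell cannot be told apart.

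Minocycline is a tetracycline antibiotic that enters the brain and is widely used to damp microglial activation. Microglia are the resident macrophages of the brain. In the healthy hippocampus they sense neuronal signals through receptors such as Cx3cr1, the receptor for neuronal fractalkine, and depend on Csf1r signalling for survival. On activation they raise pattern recognition receptors, the inflammasome and antigen presentation genes.

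The groups shared no range of mouse numbers, and the labels do not name the cohort of a mouse. Mouse numbers in the labels fall into 3 series of ranges, called A, B and C here. All 6 SS + RSD mice were in series A, while 12 SS + RSD + minocycline mice were in series B and 2 in series C, so drug and series cannot be told apart. Of the 7 SS controls, 2 were in series A and 5 in series B. The libraries also differed in the share of reads that aligned outside annotated genes. This share was 3.98%, 4.38% and 5.095% (lowest, median and highest) in SS + RSD and 4.56%, 9.32% and 24.01% in SS + RSD + minocycline (exact permutation test, two-sided, p = 0.000516; adjusted p = 0.00361 over 14 library measures). Among the treated libraries, 4 were under 7% (4.56 to 5.77%) and 10 were over 7% (7.95 to 24.01%). The comparison of the 6 SS + RSD libraries with those 4 is called the under-7% comparison, and the difference in share itself had p = 0.0952 there (exact permutation test).

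Reads on genes ranged from 19898354 to 68731008 over the 20 libraries. Neurons of the hippocampus (Prox1, C1ql2, Wfs1, Fibcd1 and Zbtb20) and microglia (Cx3cr1, P2ry12, Tmem119 and Csf1r) were detected in all 20. These microglial markers summed to 265.5 to 356 CPM (counts scaled to library size) in SS + RSD and 167 to 288 CPM in SS + RSD + minocycline (exact permutation p = 0.00299, adjusted p = 0.0137), and 279 to 288 CPM in the 4 libraries under 7% (exact permutation p = 0.552). The leukocyte markers Ptprc, Cd3e and Ccr2 summed to 3.26 to 11.3 CPM and 3.13 to 5.72 CPM (adjusted p = 0.407, exact permutation test), with Cd3e at 0 in 1 library. Ttr, the transthyretin of choroid plexus epithelium, stood at 9321 CPM in SS + RSD mouse 9615 and 2881 CPM in mouse 9616, against 5.47 to 17.1 CPM in the other 4 SS + RSD libraries. Among treated libraries Ttr was 1959 CPM in mouse 9894 and 995 CPM in mouse 9910. The library labelled 7078 of the treated group had 3.42 CPM of Alas2, the erythroid haem synthesis enzyme, against 37.1 to 122 CPM in the other 19 libraries. The red cell markers Alas2 and Slc4a1 summed to 104.5 to 131.7 CPM in SS + RSD and 3.69 to 132.7 CPM in SS + RSD + minocycline (exact permutation p = 0.00392, adjusted p = 0.0137). In the 4 treated libraries under 7% they summed to 72.75 to 132.7 CPM (exact permutation p = 0.686).

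Altogether 20701 genes were tested, and 1234 of them (5.96%) differed between SS + RSD + minocycline and SS + RSD at an adjusted p under 0.05 (edgeR quasi-likelihood test, Benjamini-Hochberg). They comprised 1010 genes higher (4.88%) and 224 lower (1.08%) with minocycline. An unadjusted p under 0.05 was reached by 5539 genes, and 11177 of the 20701 genes lay below 0. With number series as a term no gene was called (2898 at an unadjusted p under 0.05), and with the share of reads outside genes as a term none was called either (1453). No treated mouse was in series A, so the series term rests on the SS controls, 2 of series A and 5 of series B. Values with series as a term are therefore not drug effects measured within a series. The under-7% comparison of 6 against 4 libraries called 0 of 19816 genes (3230 at an unadjusted p under 0.05). The count also turned on single SS + RSD mice: 2 genes were called without mouse 5354, 7 without 5391, 16 without 9615, 129 without 9616 and 430 without 9621. Among treated mice the count ran from 601 without mouse 9812 to 2655 without mouse 7076, and was 774 without the library labelled 7078.

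**Figure D1:**
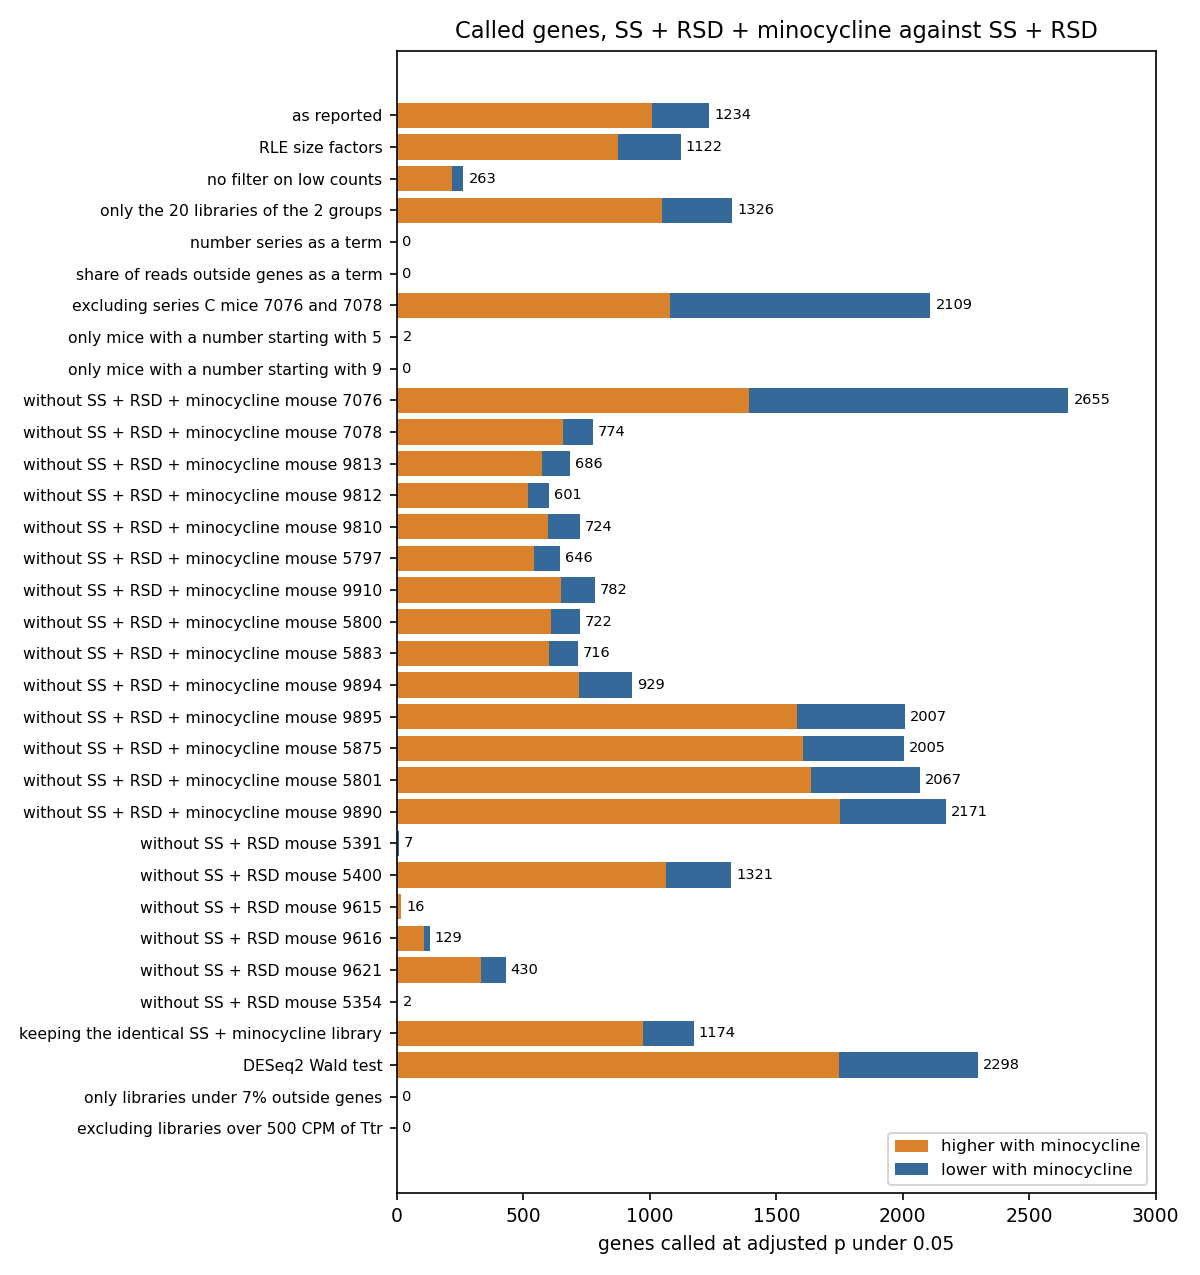
Number of genes called at an adjusted p under 0.05 in SS + RSD + minocycline against SS + RSD, one bar per model or set of libraries, split by direction. The reported model gives 1234 genes, models with series or share as a term give 0, and leaving out single SS + RSD mice gives 2 to 1321.

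The genes called higher and the genes called lower behaved differently across the libraries. Those called higher had a mean level of 1.615 to 2.09 log2 CPM in SS + RSD, 2.01 to 2.11 in the 4 treated libraries under 7%, and 2.90 to 3.23 in the 10 treated libraries over 7%. Most of their increase was thus seen in the 10 libraries over 7%. The genes called lower had a mean level of 3.81 to 4.49 log2 CPM in SS + RSD, 3.56 to 3.65 in the 4 libraries under 7% and 3.15 to 3.62 in the other 10. In the under-7% comparison all 224 lower genes kept their direction, and their median was -0.33 (-0.48 with all libraries). Of 926 higher genes tested there, 665 kept their direction and the median was 0.10 (0.85 with all libraries). These levels describe genes chosen on the same libraries and were not tested.

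**Figure D2:**
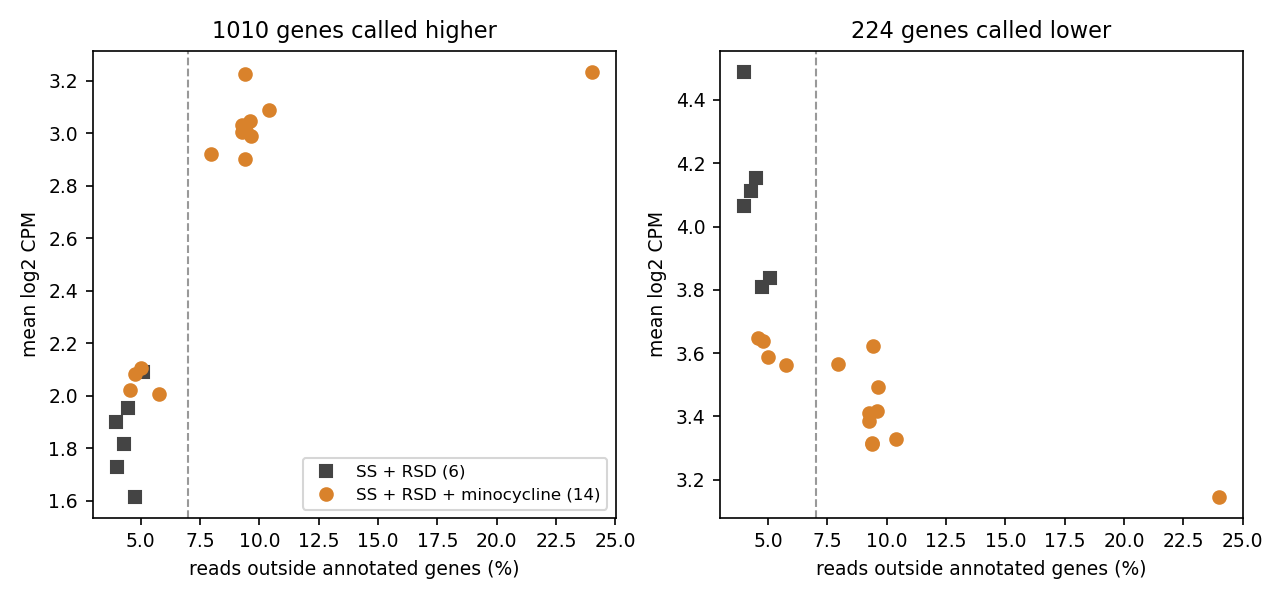
Mean log2 CPM of the 1010 genes called higher (left) and the 224 called lower (right) against the percentage of reads outside annotated genes, one point per library; the dashed line marks 7%. On the left the 4 treated libraries under 7% (2.01 to 2.11) lie near the SS + RSD libraries (1.615 to 2.09), and on the right they lie below all 6 (3.56 to 3.65 against 3.81 to 4.49).

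By biotype, 193 of the 996 annotated higher genes were long noncoding RNAs (19.4%), against 7 of the 224 lower genes (3.12%) and 10.9% of all genes tested. Long noncoding RNAs took 0.750 to 1.06% of gene reads in SS + RSD, 0.778 to 0.863% in the 4 treated libraries under 7% and 1.70 to 2.55% in the 10 over 7%. The difference between all libraries had p = 0.00728 (exact permutation test; adjusted p = 0.0204), and p = 0.667 with the 4 alone.

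The largest increases among called genes were in A230103L15Rik, Muc3a, Gm37206, Gm45869, Coro6, Col7a1, Meg3 and Gm44562, with log2 fold changes of 2.05 to 3.08. Meg3, an imprinted noncoding RNA held largely in the nucleus, measured 594, 1000 and 1570 CPM (lowest, median and highest) in SS + RSD and 605, 5010 and 8030 CPM in SS + RSD + minocycline. Its log2 fold change was 2.08 ± 0.53 (SE; adjusted p = 0.0289). The 4 treated libraries under 7% held 605 to 1190 CPM, inside the SS + RSD range, and the 10 over 7% held 4770 to 8030 CPM. Over all 31 SS libraries of the model, Meg3 ran from 594 to 1807 CPM in the 14 under 7% and from 4027 to 8030 CPM in the 17 over 7%, whatever their treatment. Coro6, which encodes a coronin family actin binding protein, showed the same split: 8.56 to 11.8 CPM in the 4 and 23.4 to 255 CPM in the 10, with 6.01 to 16.6 CPM in SS + RSD. Of these 8 genes, 5 had a negative log2 fold change in the under-7% comparison, down to -0.31 for Col7a1, and the other 3 lay between 0.08 and 0.38. Gm37206 lies wholly across exons of Rbm4b on the other strand, and the strand setting of the counts is not given in the sources used here.

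The largest decreases were in Gm8730, H2-Aa, H2-Eb1, H2-Ab1, Tuba1c, Cd74, Prlr and Enpp2. Of these 8, 4 are genes of antigen presentation by MHC class II. H2-Aa, the class II alpha chain, was at 0.815, 4.31 and 130 CPM in SS + RSD and 0.443, 2.04 and 16.4 CPM with minocycline, a log2 fold change of -2.97 ± 0.70 (SE; adjusted p = 0.0256). The groups overlapped, and the 130 CPM belonged to mouse 9615. Its partner chains and the invariant chain followed: H2-Ab1 reached 74.9 CPM, H2-Eb1 97.8 CPM and Cd74 197 CPM in mouse 9615. Without that mouse the log2 fold changes were -0.06 for H2-Aa, -0.15 for H2-Ab1, -0.14 for H2-Eb1 and 0.15 for Cd74, at adjusted p of 0.901 to 0.966. Mouse 9615 was also the library with the most Ttr, and the part of the choroid plexus transcripts in these values was not tested.

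Among the lower genes, 3 are markers of choroid plexus: Kl (klotho), Enpp2 (autotaxin, which makes lysophosphatidic acid) and Prlr (prolactin receptor). Kl was at 17.2, 30.7 and 203 CPM in SS + RSD and 12.8, 22.6 and 71.1 CPM with minocycline (log2 fold change -1.34 ± 0.37, adjusted p = 0.0345). Without mouse 9615 its value was -0.58 (adjusted p = 0.301), and those of Enpp2 and Prlr were -0.63 and -0.74. All 14 choroid plexus genes tested lay below 0 (median -2.30), and 3 were called lower. Without the libraries over 500 CPM of Ttr, the list median was 0.36, Kl was at -0.35, Enpp2 at -0.10 and Prlr at 0.28, and the whole comparison then called 0 genes (3975 at an unadjusted p under 0.05).

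Gm8730, annotated as a pseudogene, and Tuba1c, an alpha tubulin, were also high in a subset of SS + RSD mice and in some mice without RSD. Gm8730 was at 17.2 to 42.3 CPM in mice 5391, 9615, 9616 and 9621 and at 0.658 and 0.9845 CPM in the other two, while 12 of the 14 treated libraries were at 1.24 CPM or less. Tuba1c was at 4.60 to 33.6 CPM in those same 4 mice and at 1.19 and 1.23 CPM in the other two, against 0.700 to 6.55 CPM with minocycline. Without RSD, SS controls 9822 and 9848 held 29.6 and 31.8 CPM of Gm8730 and 6.61 and 25.8 CPM of Tuba1c. The other SS controls held at most 0.955 CPM of Gm8730 and 4.19 CPM of Tuba1c. SS + minocycline mice 7108 and 7121 held 8.46 and 7.56 CPM of Gm8730 and 7.25 CPM each of Tuba1c. Reads of a pseudogene and of its parent gene can be assigned to either, so the Gm8730 value is uncertain.

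**Figure D3:**
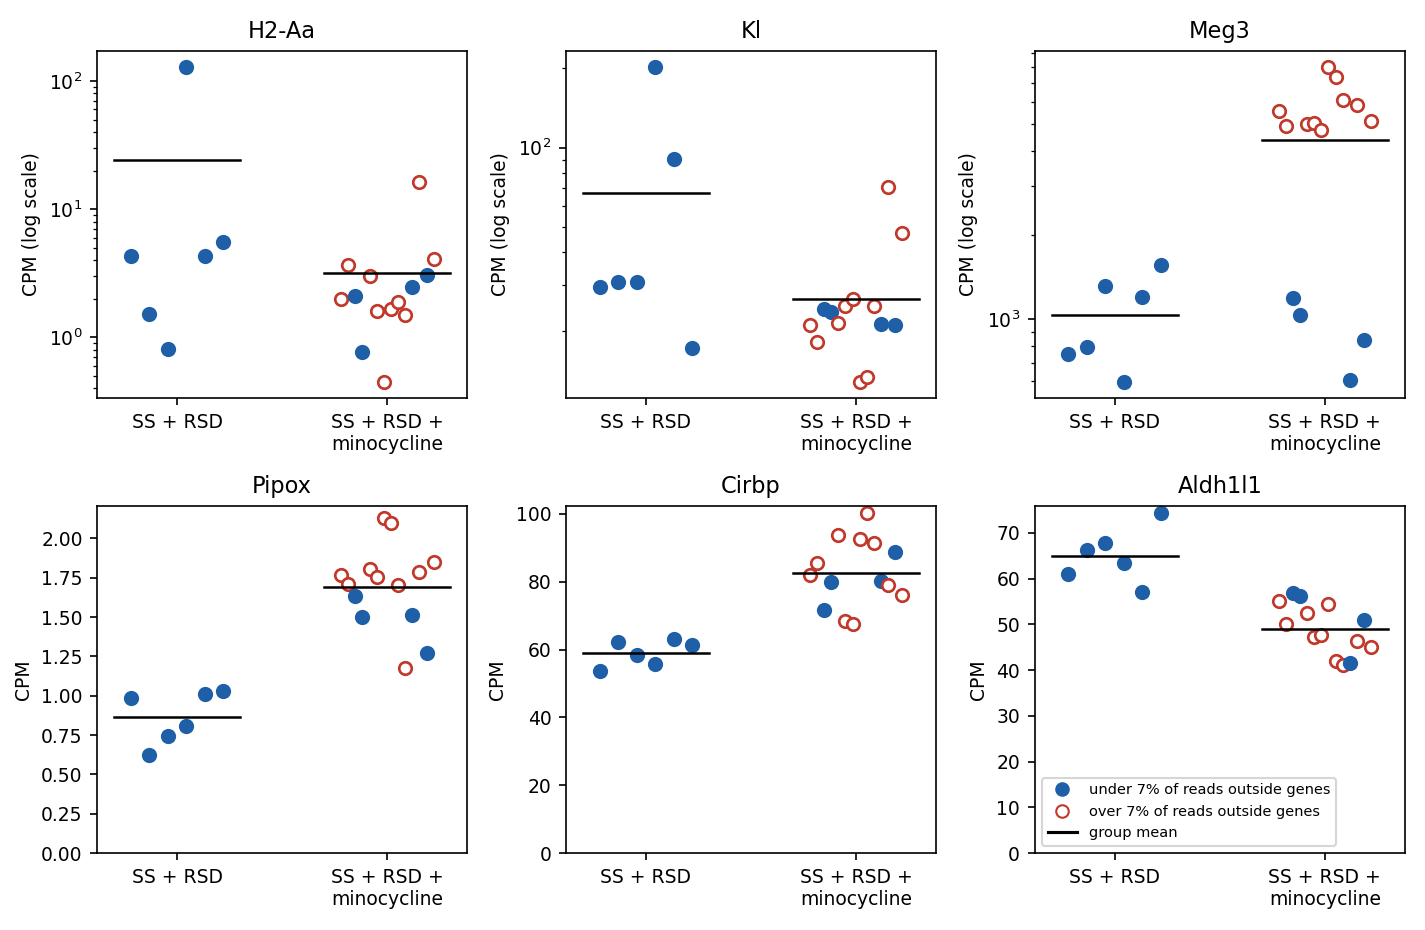
Level of 6 genes in each library of the 2 groups (CPM; log axes in the top row), with filled points under and open points over 7% of reads outside genes and a line at the group mean. H2-Aa and Kl are highest in 1 SS + RSD library, and Meg3 separates by share. Treated points of both share classes lie above (Pipox, Cirbp) or below (Aldh1l1) every SS + RSD point. All SS + RSD points are under 7%, so no untreated library was over 7%.

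Cx3cr1 was lower in every treated library than in any SS + RSD library. The gene (ENSMUSG00000052336) lies on chromosome 9 from 119877749 to 119898945 on the minus strand of GRCm39. It measured 65.4, 67.7 and 82.2 CPM (lowest, median and highest) in SS + RSD and 41.9, 53.5 and 63.5 CPM in SS + RSD + minocycline. The means were 69.9 ± 6.33 (SD, n = 6) and 53.6 ± 7.59 CPM (SD, n = 14), and the log2 fold change was -0.38 ± 0.10 (SE; adjusted p = 0.0269), a 1.31-fold lower level. By mouse, SS + RSD held 65.4 (5354), 65.6 (5391), 71.0 (5400), 82.2 (9615), 67.7 (9616) and 67.7 CPM (9621). The 4 treated libraries under 7% held 63.5 (5801), 63 (5875), 61.97 (9890) and 62.02 CPM (9895). Each lay below the lowest SS + RSD library. The 10 treated libraries over 7% held 41.9 to 59.5 CPM.

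The Cx3cr1 level also separated by share in mice without RSD. SS controls of series A, both under 7%, were at 64.8 and 60.2 CPM, and those of series B, all over 7%, at 47.9 to 55.5 CPM. SS + minocycline mice were at 68.2 and 70.1 CPM in the 2 libraries under 7% and at 45.5 and 48.4 CPM in the 2 over 7%. Over all 31 SS libraries the 14 under 7% ran from 60.2 to 82.2 CPM and the 17 over 7% from 41.9 to 59.5 CPM, with no overlap. The log2 fold change was -0.18 ± 0.07 in the under-7% comparison (adjusted p = 0.254), -0.08 with series as a term (adjusted p = 0.869) and 0.07 ± 0.125 for minocycline in mice without RSD (adjusted p = 0.981). In RSD mice it was -0.33 without mouse 9615 (adjusted p = 0.0787) and -0.21 with the share as a term (adjusted p = 0.652). Cx3cr1 was called in 16 of the 20 fits that left out a single mouse.

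**Figure D4:**
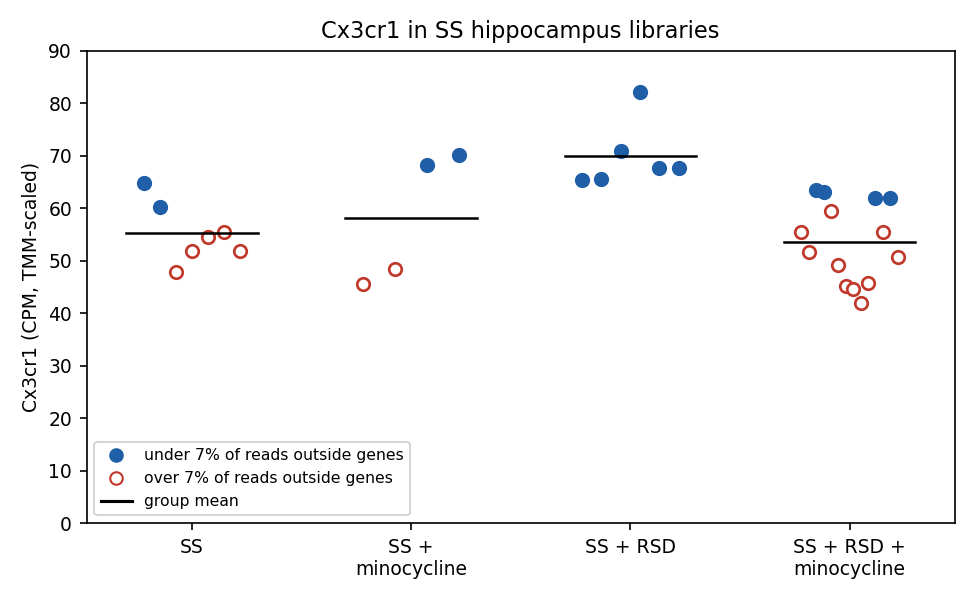
Cx3cr1 in each of the 31 SS hippocampus libraries by group (CPM), filled under and open over 7% of reads outside genes, with a line at the group mean. The 14 SS + RSD + minocycline libraries (41.9 to 63.5) lie below the 6 SS + RSD libraries (65.4 to 82.2), and in each group holding both kinds the open points lie below the filled ones.

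Of 24 homeostatic microglial genes tested, 2 were called lower (1.08% of all genes were), none higher, and 23 lay below 0. Their median was -0.39 (all genes tested: -0.03). Csf1r, the receptor for colony stimulating factor and interleukin-34, was the other one called, at 139, 146 and 185 CPM in SS + RSD and 78.9, 110 and 148 CPM with minocycline (log2 fold change -0.44 ± 0.125, adjusted p = 0.0393). The groups overlapped, with 11 of 14 treated libraries below every SS + RSD library but only 1 of the 4 under 7%. Tmem119, a membrane protein specific to microglia in the brain, had a log2 fold change of -0.53 ± 0.17 (adjusted p = 0.0564, and -0.13 under 7%) and Olfml3, a secreted microglial protein, -0.51 ± 0.18 (adjusted p = 0.0701, and -0.09 under 7%). P2ry12, the ADP receptor of ramified microglia, was at -0.16 ± 0.14 (adjusted p = 0.461). In the under-7% comparison the list median was 0.06, with 10 of 24 genes below 0. It was -0.23 without mouse 9615 and 0.25 with series as a term.

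Among 32 tested genes of microglial activation and innate sensing, 4 were called lower (all genes: 1.08%) and none higher, with a median of -0.29. The median was -0.12 under 7%, -0.17 without mouse 9615 and 0.05 with series as a term. Tlr2, the receptor for bacterial lipoproteins, was at 1.23, 1.83 and 5.78 CPM in SS + RSD and 0.700, 1.14 and 1.84 CPM with minocycline (log2 fold change -0.98 ± 0.27, adjusted p = 0.0330). The groups overlapped, the highest value was again mouse 9615, and without it the log2 fold change was -0.49 (adjusted p = 0.217). Nlrp3, the sensor of the inflammasome, had a log2 fold change of -0.70 ± 0.18 (adjusted p = 0.0298), which was -0.41 under 7% (adjusted p = 0.472). Cd38, an ectoenzyme that consumes NAD, was at -0.52 ± 0.145 (adjusted p = 0.0358) and -0.23 under 7% (adjusted p = 0.596). Axl, a TAM receptor that clears apoptotic cells, was at 59.6, 60.4 and 67.1 CPM in SS + RSD and 47.1, 53.9 and 57.99 CPM with minocycline. Its log2 fold change was -0.22 ± 0.06 (adjusted p = 0.0294), the groups did not overlap, and the under-7% value was -0.21 ± 0.07 (adjusted p = 0.249), while with series as a term it was 0.01. Neither the 22 leukocyte genes (median -0.40) nor the 24 interferon response genes (median -0.36) held a called gene. Without mouse 9615 these medians were -0.11 and -0.06, and under 7% they were -0.225 and -0.135. H2-D1, a class I chain, reached 237 CPM in mouse 9615 and moved from -0.80 (adjusted p = 0.100) to 0.05 without it.

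Sphingolipids are membrane lipids that also act as signals, and the study measured them by mass spectrometry in hippocampus and cortex. Over 4 lists of their metabolism, 3 of 68 genes were called (4.41%), against 5.96% of all genes. Of 19 genes of ceramide synthesis de novo, 1 was called lower and the median was -0.02. That gene was Ormdl2, a brake on serine palmitoyltransferase, at 5.74, 6.97 and 11.4 CPM in SS + RSD and 2.52, 3.99 and 6.85 CPM with minocycline (log2 fold change -0.77 ± 0.23, adjusted p = 0.0459). The 4 treated libraries under 7% held 6.10 to 6.85 CPM, inside the SS + RSD range, and 59.4% of its exonic bases lie opposite exons of Dnajc14 and Sarnp. Its paralog Ormdl3 was at -0.31 ± 0.12 (adjusted p = 0.104, and -0.02 under 7%) and Slc1a4, a transporter of serine, at -0.25 ± 0.09 (adjusted p = 0.0707, and -0.13 under 7%).

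In sphingomyelin turnover 1 of 13 genes was called higher, with a median of -0.07. Acer3, an alkaline ceramidase, had a log2 fold change of 0.31 ± 0.09 (adjusted p = 0.0466, and 0.14 under 7%). Smpd4, a neutral sphingomyelinase, was at 34.6, 39 and 54.8 CPM in SS + RSD and 33.2, 74.8 and 89.0 CPM with minocycline (log2 fold change 0.72 ± 0.225, adjusted p = 0.0504). All 4 treated libraries under 7% (33.2 to 38.8 CPM) lay within or below the SS + RSD range and all 10 over 7% (72.7 to 89.0 CPM) above it. Smpd1, the acid sphingomyelinase, was at -0.31 ± 0.12 (adjusted p = 0.0895, and -0.06 under 7%). None of 14 genes of sphingosine-1-phosphate was called (median -0.145), with Plpp3, a lipid phosphate phosphatase, at -0.18 ± 0.07 (adjusted p = 0.101, and -0.04 under 7%) and Sphk1, a sphingosine kinase, at -0.58 ± 0.34 (adjusted p = 0.266, and -0.98 under 7%). Of 22 glycosphingolipid genes 1 was called lower: St3gal2, a ganglioside sialyltransferase, at -0.26 ± 0.07 (adjusted p = 0.0423) and -0.21 in the under-7% comparison. St3gal3 was at -0.25 ± 0.09 (adjusted p = 0.0695, and -0.10 under 7%).

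Of 21 astrocyte genes 3 were called lower (all genes: 1.08%), all 21 lay below 0, and the median was -0.31. Aldh1l1, the folate enzyme used as a pan-astrocyte marker, was at 57, 64.8 and 74.3 CPM in SS + RSD and 41.2, 48.8 and 56.9 CPM with minocycline (log2 fold change -0.40 ± 0.09, adjusted p = 0.0237). The groups did not overlap, and the value was -0.36 in the under-7% comparison (adjusted p = 0.249) and 0.01 with series as a term (adjusted p = 0.982). Slc1a2, the main astrocytic glutamate transporter, had a log2 fold change of -0.31 ± 0.09 (adjusted p = 0.0452) and -0.33 under 7%. Steap4, a metalloreductase raised in reactive astrocytes, was at -1.60 ± 0.45 (adjusted p = 0.0358), with its highest value of 3.09 CPM in mouse 9615 and a log2 fold change of -0.74 without it. Over the list, the under-7% median was -0.03 with 11 of 21 genes below 0, and the median with series as a term was 0.27.

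Endothelial genes lay mostly below 0 in both sets of libraries. Of 26 blood-brain barrier genes, 2 were called lower (all genes: 1.08%), 23 lay below 0, and the median was -0.23 with all libraries and -0.22 under 7%, where 23 again lay below 0. Kdr, the main receptor for vascular endothelial growth factor, was at 24.5, 26.7 and 39.1 CPM in SS + RSD and 12.6, 21.4 and 24.8 CPM with minocycline (log2 fold change -0.54 ± 0.14, adjusted p = 0.0297). In 13 of 14 treated libraries Kdr lay below every SS + RSD library, including all 4 under 7% (14.1 to 24.2 CPM). Pecam1, an adhesion molecule of endothelial junctions, was at -0.51 ± 0.16 (adjusted p = 0.0488, and -0.26 under 7%) and Cdh5, the endothelial cadherin, at -0.43 ± 0.14 (adjusted p = 0.0528, and -0.38 under 7%). The number series differed in these genes too: in SS controls without drug or RSD, series B minus A had a list median of -0.31, with Pecam1 at -0.64 (adjusted p = 0.0216), Cdh5 at -0.50 (adjusted p = 0.0865) and Kdr at -0.38 (adjusted p = 0.190). With series as a term the minocycline values were 0.12 for the list median, -0.11 for Kdr, 0.22 for Pecam1 and 0.14 for Cdh5. The sum of Cldn5, Cdh5 and Pecam1 was 91.4 to 108 CPM in SS + RSD, 42.3 to 92.4 CPM in all treated libraries (exact permutation p = 0.000258, adjusted p = 0.00361) and 68.9 to 92.4 CPM in the 4 under 7% (exact permutation p = 0.0476, unadjusted).

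Among 25 activity-dependent genes, 2 were called lower (all genes: 1.08%) and the median was -0.10. Leaving out single mice gave medians from -0.18 (without 9615) to -0.06 (without 5400), and the under-7% median was -0.02. Fosb, a transcription factor that accumulates with repeated neuronal activity, was at 6.74, 7.76 and 10 CPM in SS + RSD and 4.75, 6.15 and 7.39 CPM with minocycline (log2 fold change -0.43 ± 0.105, adjusted p = 0.0260, and -0.42 under 7%). Inhba, the activin A subunit, had a log2 fold change of -0.67 ± 0.16 (adjusted p = 0.0256, and -0.52 under 7%). Egr3 was at -0.25 ± 0.08 (adjusted p = 0.0510, and -0.21 under 7%) and Nr4a1 at 0.39 ± 0.13 (adjusted p = 0.0630, and 0.12 under 7%). No glucocorticoid target was called (20 tested, median 0.01).

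None of 23 adult neurogenesis genes was called, and their median was -0.11. Dcx, the microtubule protein of newborn neurons, was at 7.84, 9.34 and 18.9 CPM in SS + RSD and 7.99, 19.4 and 30.1 CPM with minocycline (log2 fold change 0.82 ± 0.29, adjusted p = 0.0763). In the 4 treated libraries under 7% it was at 7.99 to 12.4 CPM. Eomes, a factor of intermediate progenitors, had a log2 fold change of 1.95 ± 0.89 (adjusted p = 0.156), 2.02 under 7%, and ranged from 0.0137 to 3.46 CPM with minocycline. Among 20 oligodendrocyte genes, Pdgfra, the receptor of oligodendrocyte precursors, was called lower (-0.32 ± 0.09, adjusted p = 0.0387, and -0.15 under 7%), as were 1.08% of all genes. All 20 lay below 0 (median -0.18), and 12 of 20 did under 7% (median -0.07). The median was -0.06 without mouse 5391, -0.26 without mouse 5400 and 0.68 with series as a term, and series B minus A in SS controls had a median of -0.87.

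Sirt4, a mitochondrial sirtuin, was called higher of 7 sirtuins (0.96 ± 0.27, adjusted p = 0.0360), at 6.25 to 15.2 CPM in SS + RSD, 8.05 to 10.1 CPM in the 4 treated libraries under 7% and 20.7 to 25.3 CPM in the 10 over 7%. Grik2, a kainate receptor subunit, was the only 1 of 29 glutamate receptor genes called (0.33 ± 0.10, adjusted p = 0.0466, and 0.17 under 7%). Like Sirt4 it was called higher, as were 4.88% of all genes. None of 12 serotonin receptor genes was called: Htr4, Htr6 and Htr7 had log2 fold changes of 0.02, -0.16 and 0.10.

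The study names 27 genes that were tested, and 8 of them were called lower and none higher, against 1.08% of all genes tested called lower. Described above are Cx3cr1, Csf1r, Tlr2, Cd38, St3gal2 and Ormdl2. The study named its genes from the same samples, so their direction is not independent evidence. Several were named for cortex, or for comparisons other than minocycline in defeated SS mice. The other two were Akt2, a kinase of insulin signalling, at -0.36 ± 0.09 (adjusted p = 0.0259, and -0.32 under 7%), and Entpd1 (CD39), which degrades extracellular ATP on microglia and endothelium, at -0.35 ± 0.09 (adjusted p = 0.0330, and -0.20 under 7%). Akt2 lay below every SS + RSD library (91.0 to 108 CPM) in 13 of 14 treated libraries. Values for those not called and not given above were -0.50 for Maob, -0.20 for Adora1, -0.25 for Vcp, -0.23 for Ctnnb1, -0.18 for Akt1, -0.19 for Abhd6, -0.79 for Ccr7, -0.13 for Bdnf, and -0.01 for both Elovl4 and Foxf1. Their adjusted p ran from 0.0506 for Maob to 0.982 for Foxf1. In its cortex results the study lists Bdnf and Entpd1 with processes enriched in SS + RSD + minocycline mice. The direction here was the opposite. In cortex Bdnf was at -0.80 (adjusted p = 0.00332, edgeR) and Entpd1 at -0.53 (adjusted p = 0.0151, edgeR).

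Lists of abundant transcripts turned with the share of reads outside genes. All 78 nuclear genes of the respiratory chain lay below 0 (median -0.24), and in the under-7% comparison 2 of 78 did (median 0.27). Cytosolic ribosomal proteins went from 80 of 83 below 0 (median -0.35) to 5 of 83 (median 0.25). No gene of either list was called in either comparison. Among 13 mitochondrially encoded genes (none called, median -0.24), mt-Co3 was at 417 CPM in mouse 5391 and 348 CPM in mouse 9621 of SS + RSD and at 196 CPM in mouse 7076 of the treated group, against 11.1 to 40.5 CPM in the other 17 libraries. Mice 5391, 9621 and 7076 also had the most unmapped reads (27.4, 25.5 and 24.9%), against at most 16.4% in the other 17. Without RSD, mice 9822, 9848, 7108 and 7121 held 187 to 216 CPM of mt-Co3 with 24.5 to 29.1% unmapped. The part of the unmapped share in these values was not tested.

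**Figure D5:**
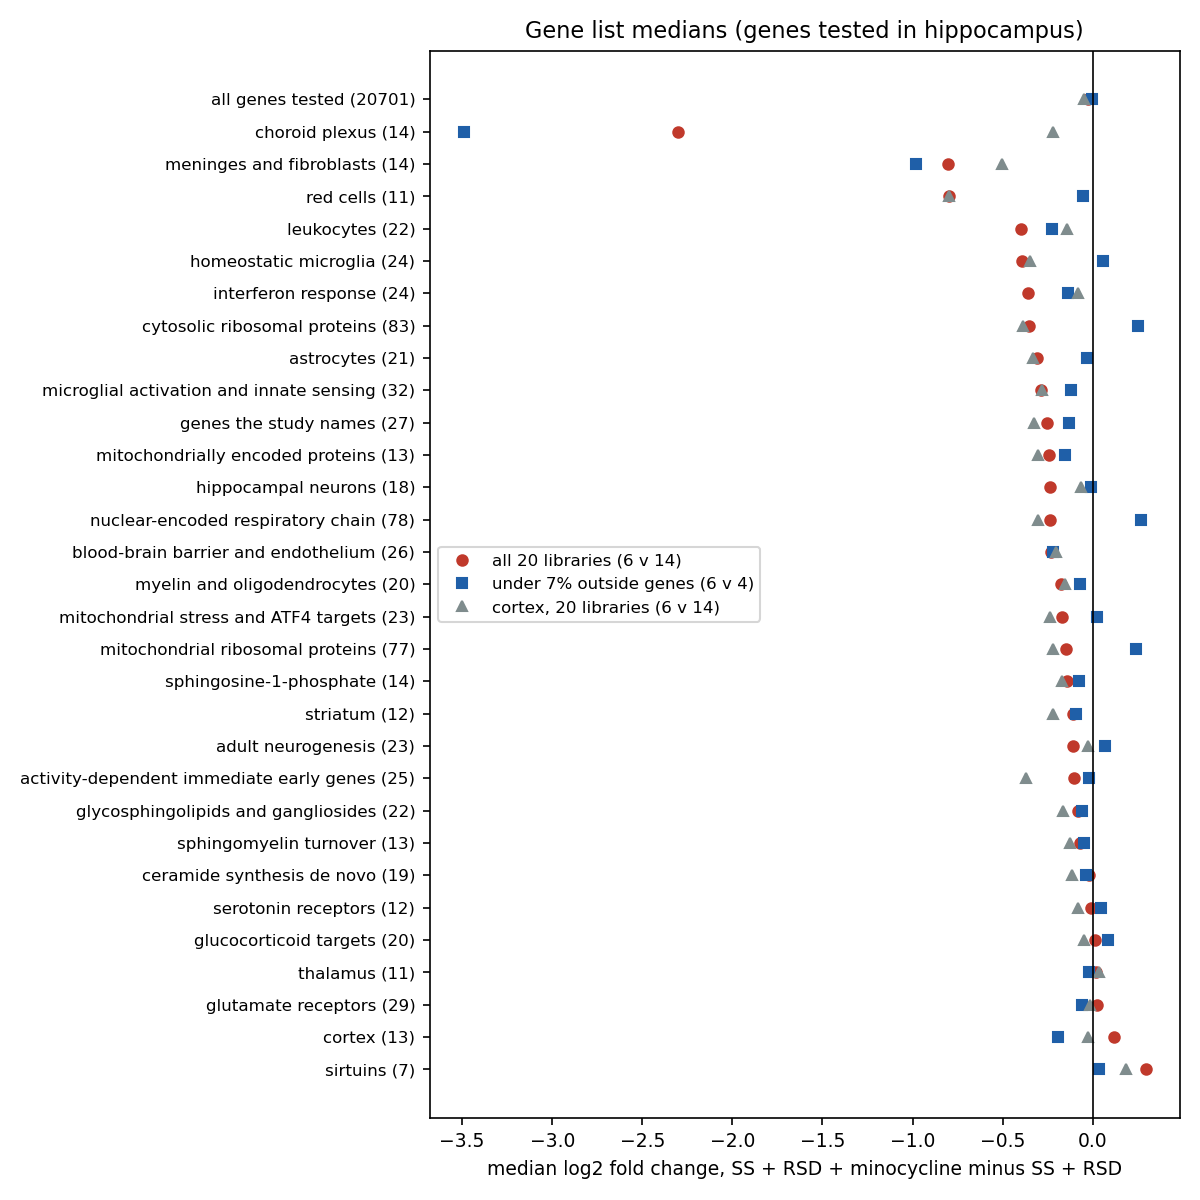
Median log2 fold change of each gene list (SS + RSD + minocycline minus SS + RSD) over all 20 hippocampus libraries, over the 10 under 7% of reads outside genes, and over the cortex libraries of the same mice. The endothelial median is -0.23, -0.22 and -0.20 in the 3, while the ribosomal protein median is -0.35 and -0.39 over all libraries and 0.25 under 7%.

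Complete separation of the 2 groups was rare. In 16 of 20701 genes (0.0773%) all 14 treated libraries lay above or below all 6 SS + RSD libraries, 11 above (0.0531%) and 5 below (0.0242%), and all 16 were among the called genes. With the 4 treated libraries under 7% alone, 443 genes (2.14%) did not overlap, 318 above (1.54%) and 125 below (0.604%). The genes below were Cx3cr1, Axl, Aldh1l1, Hyou1 and Itgb5. Hyou1, a chaperone of the endoplasmic reticulum, had a log2 fold change of -0.35 ± 0.08 (adjusted p = 0.0238, and -0.31 under 7%), and Itgb5, an integrin subunit rich in microglia, -0.61 ± 0.13 (adjusted p = 0.0225, and -0.41 under 7%). Those above, chosen like the other non-overlapping genes after their values were seen, were Pipox, Cirbp, Ciart, Mir22hg, Rpgr, Dis3, Exoc1, Fam13a, Ino80dos, AC174678.1 and 1 gene without a symbol.

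Pipox, the peroxisomal oxidase of pipecolic acid and sarcosine, had the smallest adjusted p of all genes. It was at 0.621, 0.896 and 1.03 CPM in SS + RSD (20 to 35 counts) and at 1.18, 1.73 and 2.13 CPM with minocycline (29 to 124 counts), a log2 fold change of 0.97 ± 0.15 (adjusted p = 0.00925). The 4 treated libraries under 7% held 1.27 to 1.63 CPM, above every SS + RSD library, with a log2 fold change of 0.75 there (adjusted p = 0.249). Of the 1234 called genes, Pipox alone was called whichever of the 20 mice was left out. SS controls held 0.946 to 1.72 CPM and SS + minocycline mice 1.39 to 2.29 CPM, both groups overlapping the treated RSD mice. With series as a term the value was 0.95 (adjusted p = 0.100), and with the share as a term 0.90 (adjusted p = 0.146). Minocycline without RSD had a log2 fold change of 0.49 ± 0.18 in Pipox (adjusted p = 0.981).

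Cirbp, an RNA binding protein induced by mild cold and cellular stress, was at 53.7, 59.9 and 63.1 CPM in SS + RSD and 67.6, 81.1 and 100 CPM with minocycline (log2 fold change 0.48 ± 0.09, adjusted p = 0.0198). It was at 71.7 to 88.7 CPM in the 4 libraries under 7% (log2 fold change 0.41, adjusted p = 0.201) and its value was 0.33 with series as a term (adjusted p = 0.257). SS controls held 66 to 96 CPM and SS + minocycline mice 64.3 to 92.5 CPM, all above the SS + RSD range. Of the exonic bases of Cirbp, 32.5% lie opposite exons of genes on the other strand. Ciart, a repressor of the circadian clock, was at 9.45 to 10.9 CPM and 11.5 to 25.7 CPM (log2 fold change 0.51 ± 0.145, adjusted p = 0.0393, and 0.30 under 7%). Mir22hg, the host transcript of miR-22, had a log2 fold change of 0.47 ± 0.09 (adjusted p = 0.0198), which was 0.48 under 7%.

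In SS mice without RSD, the comparison of minocycline with no drug called 0 of 20701 genes by edgeR (449 at an unadjusted p under 0.05). The test of the difference between the minocycline effects with and without RSD called 0 genes by edgeR (3873 at an unadjusted p under 0.05) and 562 by DESeq2, a second count model. Both use 4 SS + minocycline libraries, 2 of series B under 7% and 2 of series C over 7%. When the mice without RSD were held to series B, 2 treated libraries under 7% faced 5 controls over 7%, and 2549 genes were called.

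Series B against series A in untreated, undefeated SS controls called 4336 of 20990 genes (20.7%), 1847 higher (8.8%) and 2489 lower (11.9%) in series B, with all 5 libraries of series B over 7% and both of series A under 7%. Among 20435 genes tested in both, 577 of the 1008 genes higher with minocycline (57.2%) were also higher in series B, which is 31.5% of the 1832 genes higher there. For lower genes the shared number was 34 of 222 (15.3%), or 1.37% of 2485. Cx3cr1 had a log2 difference of -0.25 ± 0.09 between the series (adjusted p = 0.0841), Csf1r -0.47 (adjusted p = 0.0209), Meg3 1.97 (adjusted p = 0.00559), Cirbp 0.21 (adjusted p = 0.309) and Pipox -0.02 (adjusted p = 0.970).

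In the cortex of the same 20 mice, the comparison called 1762 of 19906 genes (8.85%), 1270 higher (6.38%) and 492 lower (2.47%), and with the mouse as a block the test of a difference between the tissues called 0 of 20220 genes by edgeR (359 at an unadjusted p under 0.05). Cx3cr1 had a log2 fold change of -0.33 in cortex (adjusted p = 0.0610), Aldh1l1 -0.46 (adjusted p = 0.0109), Cirbp 0.49 (adjusted p = 0.0142) and Pipox 1.07 (adjusted p = 0.0253). Cortex values of H2-Aa (-1.82, adjusted p = 0.0109) and Pecam1 (-0.63, adjusted p = 0.00795) were also in the hippocampal direction. Bdnf, the neurotrophin, was at -0.13 in hippocampus (adjusted p = 0.611) and -0.80 in cortex (adjusted p = 0.00332), and the difference of 0.61 ± 0.15 had an adjusted p of 1. In cortex 9 of the 14 treated libraries (9.655 to 12.1%) and SS + RSD mouse 5354 (8.39%) were over 7%, and the tissues share the mice and the number series.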

How the data were processed

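Libraries were directional poly(A) RNA-seq of one hippocampus per mouse, so replicates are separate mice. The counts per gene were deposited by the authors, who aligned single-end reads with STAR to GRCm39 and counted them over GENCODE genes; the strand setting and versions are not given in the sources used here. Lines for unmapped, multimapping, outside-gene and ambiguous reads (4 in all) were kept out of library sizes. For hippocampus 2 columns, and for cortex 1 column, matched no library of known group and were not used.

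Groups, genes and lists were chosen with earlier results of these data known. The model held 31 SS hippocampus libraries in 4 groups; a library of SS + minocycline identical in counts to one labelled with another group was left out. Counts were fitted in edgeR 4.0.16 (R 4.3.3, TMM, filterByExpr with a minimum count of 10 and total of 15, quasi-likelihood test, Benjamini-Hochberg, adjusted p under 0.05). A prior count of 2 was used for log2 CPM values only. Folds are treated minus untreated, and ± is the SE where not marked SD. The SE is the absolute log2 fold change over the square root of the F statistic. 1 marker each of microglia and leukocytes is not reported here and was left out of the marker sums. Library measures were tested by exact permutation (scipy 1.17.1, two-sided). DESeq2 1.42.0 was an alternative, and the others were size factors, the low-count filter, the libraries fitted, series or share as terms, and leaving out each mouse. Settings under 7% of reads outside genes and without libraries over 500 CPM of Ttr were added after seeing the data. Hippocampus and cortex of one mouse were paired by the mouse number in the labels. The edgeR step was tested on simulated data. Reads per library (19898354 to 68731008 over the 20) limit low genes such as Pipox.

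Genes were named if the study names them, if they were among the 8 largest called changes in each direction with a symbol and a mean of at least 1 log2 CPM, or if they had one of the 4 smallest p of a fixed list. Non-overlapping genes, Ttr and P2ry12 were singled out after their values were seen. Positions are from the GENCODE annotation of GRCm39.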

Additional observations from a re-analysis of the deposited data

Results flagged for a closer look

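Within the 6 SS + RSD libraries, 21 of 95 sets of values tested held a value that stood apart from the other 5 by Dixon's criterion. Chance meets this criterion in about 1 in 20 independent groups. Many sets are genes chosen on these same libraries, and all sets share the same mice, so that rate is no yardstick for the 21 sets. Mouse 9615 held 15 of them as the highest value, including Cx3cr1 (82.2 CPM), Csf1r (185 CPM), Tlr2 (5.78 CPM), H2-Aa (130 CPM), H2-Ab1 (74.9 CPM), H2-Eb1 (97.8 CPM), Cd74 (197 CPM), H2-D1 (237 CPM), Eomes (0.921 CPM), Steap4 (3.09 CPM), Enpp2 (2831 CPM), Ttr (9321 CPM) and Itgb5 (87.0 CPM). The same library had the highest summed microglial markers (356 CPM) and choroid plexus markers (9578 CPM). Mouse 5400 was highest for Smpd4 (54.8 CPM) and Hyou1 (152 CPM). Mouse 5391 was lowest for Htr7 (6.75 CPM) and Ino80dos (2.25 CPM). Mouse 9621 was highest for Gm44562 (3.71 CPM) and Tuba1c (33.6 CPM).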

How the results depend on the processing

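The number of genes called in the minocycline comparison of SS + RSD mice was 1234, and 1122 with RLE size factors, 1326 from the 20 libraries alone and 1174 with the identical library kept. It was 263 with no filter on low counts, 774 without mouse 7078, 2109 without series C, 2298 by DESeq2, 2 from mice with numbers starting with 5 and 0 (edgeR; 4051 at an unadjusted p under 0.05) from those starting with 9. It was also 0 with series as a term (2898), with the share as a term (1453), under 7% (3230) and without libraries over 500 CPM of Ttr (3975). Leaving out each mouse gave 2 to 2655. The cause was not tested. In mice without RSD, series B alone gave 2549 calls against 0, and DESeq2 gave 562 for the difference of effects. Series B against A gave 8518 with AA and SS controls and genotype as a term, and 660 to 878 without single series A mice. For the hippocampus against cortex comparison, the pairing is by mouse, and without the block the count of calls was 0, as with it. The block changed no call.

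Log2 fold changes that turned sign follow, and those with series as a term rest on the SS controls of series A and B. With series as a term they were Csf1r 0.084, Tmem119 0.11, Olfml3 0.27, P2ry12 0.012, Axl 0.014, Ormdl2 0.25, Slc1a4 0.17, Ormdl3 0.16, Acer3 -0.18, Smpd4 -0.21, Smpd1 0.35, Plpp3 0.17, St3gal3 0.11, Dcx -0.25, Aldh1l1 0.013, Sirt4 -0.017, Grik2 -0.28, Htr4 -0.12, Pecam1 0.22, Cdh5 0.14, Akt2 0.017, Akt1 0.22, Maob 0.22, Vcp 0.13, Abhd6 0.15, Ccr7 0.66, Bdnf 0.14, Foxf1 0.40, A230103L15Rik -0.67, Muc3a -1.56, Gm37206 -0.33, Gm45869 -0.38, Meg3 -0.018, Gm44562 -1.42, Enpp2 0.50, Ttr 1.46, Itgb5 0.039, Exoc1 -0.023, Dis3 -0.043, Rpgr -0.17. Under 7% they were P2ry12 0.21, Smpd4 -0.22, Dcx -0.056, Sirt4 -0.091, Vcp 0.046, Ctnnb1 0.064, Abhd6 0.077, Bdnf 0.33, Elovl4 0.15, Muc3a -0.061, Gm37206 -0.071, Coro6 -0.31, Col7a1 -0.31, Meg3 -0.20. With the share as a term they were P2ry12 0.0015, Abhd6 0.0056, Bdnf 0.11. From mice starting with 5 they were H2-Aa 0.065, Steap4 0.11, Prlr 0.65, Ttr 0.93, and from those starting with 9 Htr7 -0.036, Bdnf 0.0019, Foxf1 0.39. Without Ttr-rich libraries they were Elovl4 0.024, Prlr 0.28, Ttr 1.22; from the 20 libraries alone Elovl4 0.0029, Foxf1 0.0083; with RLE Foxf1 0.00012; without 7078 Foxf1 0.014; and without series C Foxf1 0.026. Over the fits that left out one mouse, the values that turned sign in at least one ran for Cd74 from -3.05 to 0.15, for Elovl4 from -0.043 to 0.016, for Foxf1 from -0.077 to 0.094, for H2-D1 from -0.94 to 0.046, for Htr4 from -0.028 to 0.053.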

Other observations

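The hippocampus library of a mouse correlated best with the cortex library of the same mouse in 13 of 20 mice, over 500 genes. Mouse 7078 held 3.47 CPM of Alas2 when all hippocampus libraries were scaled together, where the 33 libraries of AA mice, which carry normal human haemoglobin, held 1.70 to 55.5 CPM with a median of 3.77 CPM.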
